A study of Mus musculus with 12 samples.

Results

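Leukemic marrow cells sorted for high surface B220 (B220 HIGH) were compared with unsorted leukemic marrow (iMLL-ENL total), 3 libraries against 3, which are 6 of the 12 mRNA libraries of the series. The libraries were taken by their labels, not by a measured value. All 6 came from bone marrow of C57BL/6 mice that carry an inducible knock-in of MLL-ENL and were kept on doxycycline until acute leukemia developed, so the reference here is leukemic as well, and it still holds whatever normal cells the marrow had. The labels give neither the age of the mice nor the promoter that drives the inducer. A further leukemic group, 3 libraries of the same genotype and treatment sorted for low B220 (B220 LOW), is quoted for context, and the sorted wild-type stem and progenitor cells of the series do not enter.

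B220 is the long isoform of CD45, the receptor tyrosine phosphatase encoded by Ptprc. It is the classic surface mark of mouse B lineage cells, and it is also carried by plasmacytoid dendritic cells and by some leukemias that mix lineages. MLL-ENL joins the start of the histone methyltransferase MLL (Kmt2a) to ENL (Mllt1), a reader of acetylated histones that brings in the transcription elongation machinery, and it is known for holding the Hoxa genes and Meis1 on in blood progenitors. Total marrow of a leukemic mouse is a mixture of blasts and the remaining granulocytes, monocytes, lymphocytes and stromal cells, while a B220 gate keeps whichever of these carry the mark.

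Library totals were 10921521, 20069503 and 19775319 counts in B220 HIGH 1, 2 and 3 and 21582450, 18001563 and 22706882 in total 1, 2 and 3. The sorted groups stand in one deposited count table and the total group in another, so the group, the sort and the table cannot be told apart in any difference between B220 HIGH and total. The labels give 3 animals per genotype and do not tie libraries to animals, so p-values measure the spread between these libraries. In fits with the replicate number as a block, this is the spread left after differences between numbers are taken out. B220 HIGH 2 stood apart from the other sorted libraries: its class II MHC and dendritic cell genes summed to 4020 CPM (counts scaled to a common library total), against 372 and 286 in B220 HIGH 1 and 3, while its mast cell carboxypeptidase Cpa3 was at 52.5 CPM against 819 and 876. B220 HIGH 1 was the shallowest library and held the fewest neutrophil transcripts, a summed 868 CPM against 28808 and 14764.

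Of 13103 genes tested with edgeR and the replicate number as a block, 1382 (10.5%) passed an adjusted p of 0.05. Higher in B220 HIGH were 798 genes (6.09%) and lower were 584 (4.46%), and the median log2 fold change of all genes tested, B220 HIGH minus total, was -0.05. Each of the 1382 moved the same way in 3 of 3 pairs. The calls were made with these pairs as the block, so this agreement adds no separate support. For 1227 of the 1382 the libraries of the groups did not overlap. Over all 13103 genes, the groups did not overlap for 17% with B220 HIGH above and for 15.6% with B220 HIGH below. Without the block 506 genes passed (3.86%), 304 of them higher (2.32%) and 202 lower (1.54%). The calls leaned most on number 3: without its pair 252 genes passed, against 797 without number 1 and 2051 without number 2. In a fit of all 9 leukemic libraries, B220 LOW differed from total in 2540 of 13524 genes (18.8%), 1480 higher (10.9%) and 1060 lower (7.84%). The 2 sorted groups, which share a table, differed in 101 genes (0.747%), 95 of them higher in B220 HIGH (0.702%) and 6 lower (0.0444%). The comparisons with total share the total libraries, so their values are set side by side below and no overlap between them is counted as a result. Levels of a group are given in CPM in the order of its libraries 1, 2 and 3, and where the call of a gene named by the rule in the methods was lost without the block or without a pair, the adjusted p of that fit is given. For genes named with values after these were seen, a loss is given for the fit without the block only.

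**Figure D1:**
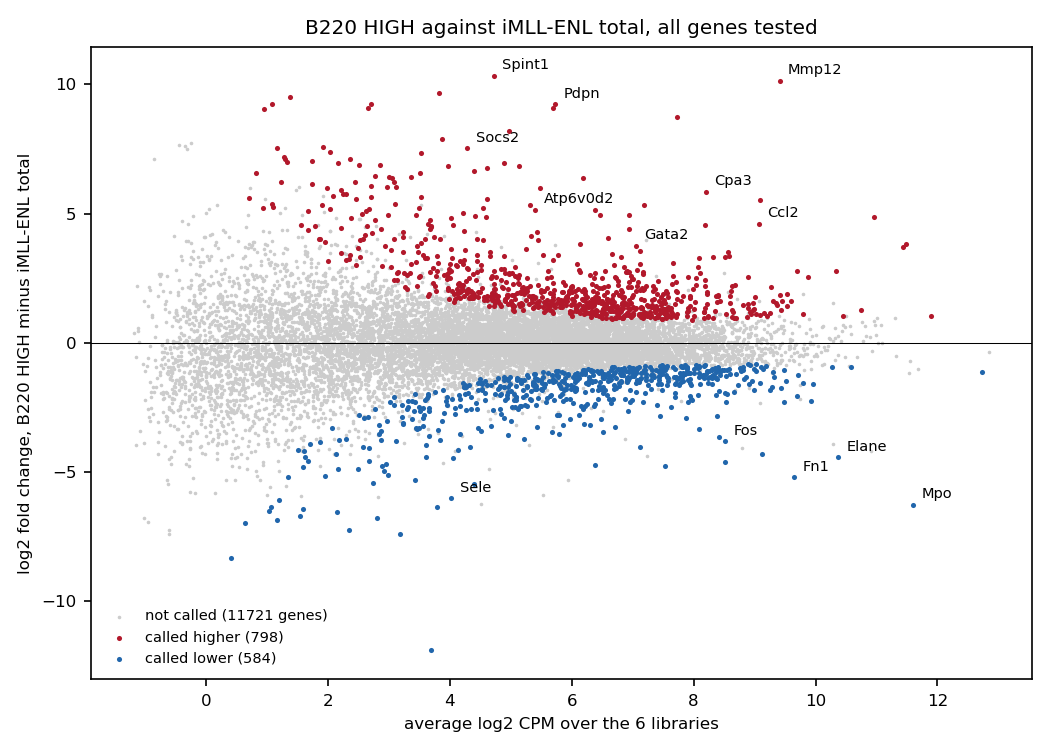
Log2 fold change of B220 HIGH minus iMLL-ENL total (y axis) against average log2 CPM over the 6 libraries (x axis), one point per gene tested. Red points are the 798 genes called higher, blue points the 584 called lower and grey points the rest. The lowest point, at an average near that of Sele, is 4933440M02Rik, which had 0 counts in B220 HIGH, so its fitted value is no estimate of size.

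Ptprc, the gene of CD45 and so of B220, was at 534, 599.8 and 553 CPM in B220 HIGH and 749, 554 and 737 in total. The groups overlapped and the difference did not pass (log2 fold change -0.26, SE 0.25, adjusted p = 0.519); counts per gene do not separate the B220 isoform from the others. Of 10 genes of CD45 and its splicing, Hnrnpl, an RNA-binding protein that represses the variable CD45 exons, rose from 77.6, 133 and 87.2 CPM to 179.7, 187 and 191 (log2 fold change 0.95, SE 0.26, adjusted p = 0.0497), and Ptpn22, a phosphatase that restrains lymphocyte receptor signalling, fell from 108, 86.9 and 72.1 CPM to 18.9, 41.6 and 13.6 (log2 fold change -2.0, SE 0.39, adjusted p = 0.0189). Neither call held without the block (adjusted p = 0.0862 and 0.0531), nor without number 3 (0.175 and 0.0967), and that of Hnrnpl was also lost without number 1 (0.22). B220 LOW moved the same way against total, with Hnrnpl at 154, 280 and 179 CPM (log2 fold change 1.07, adjusted p = 0.0098). Its Ptpn22 was at 25.2, 18.1 and 37.3 CPM (log2 fold change -1.66, adjusted p = 0.0269). The sorted groups did not differ beyond the test in either gene (adjusted p = 0.97 and 0.92).

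The defining genes of B cells were at or near 0 in 2 of the 3 libraries sorted for high B220. Cd79a, a chain of the B cell receptor complex, was at 0.0916, 4.78 and 0.101 CPM in B220 HIGH 1, 2 and 3 and at 0.371, 3.61 and 0.793 in total, and Ebf1, a factor that commits cells to the B lineage, at 0, 14.1 and 2.78 against 0.741, 5.39 and 2.03. The groups overlapped for both, with adjusted p of 0.541 and 0.967, and Pax5, at 0, 0.0997 and 0.202 CPM against 0.278, 1.06 and 0.0440, was too low to be tested. Of 26 listed B lineage genes, 11, 0 and 8 had no count in B220 HIGH 1, 2 and 3. Of the 18 tested, 2 were higher and 0 lower, with a median of 0.33; within the pairs the median was -0.68, 2.08 and -0.29 for numbers 1, 2 and 3. So the label of a high-B220 sort was not matched by a B cell transcriptome in B220 HIGH 1 and 3, and B220 HIGH 2 held low levels of these genes.

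The 2 B lineage members that rose are shared with other cells. Il7r, the interleukin-7 receptor chain of lymphoid progenitors that activated myeloid cells also carry, stood at 29.1, 128 and 225 CPM in B220 HIGH and 7.0, 9.72 and 4.27 in total, with no overlap (log2 fold change 3.82, SE 0.75, adjusted p = 0.0297). Its call was lost without number 2 (0.271). Cd24a, a small glycosylated surface protein of immature blood cells, stood at 104, 737 and 258 CPM against 19.3, 199 and 121; the groups overlapped but each pair rose (log2 fold change 1.80, SE 0.29, adjusted p = 0.0113; 0.31 without the block). In B220 LOW Il7r was at 3.08, 0.893 and 8.90 CPM and Cd24a at 80.9, 171 and 63.3.

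Markers of plasmacytoid dendritic cells were called in both directions, and those of T cells and class II antigen-presenting cells were not called. Siglech, the lectin that marks mouse plasmacytoid dendritic cells, was at 0.458, 66.7 and 2.02 CPM in B220 HIGH and 2.27, 4.89 and 0.749 in total (log2 fold change 1.27, SE 1.22, adjusted p = 0.534), so that a single library was high. Of 13 plasmacytoid genes tested 1 rose and 1 fell, with a median of -0.19, while 6.09% of all genes tested rose and 4.46% fell. Bst2, the interferon-inducible membrane tether also used as a plasmacytoid marker, was higher with no overlap, 36.6, 69.4 and 68.3 CPM against 6.81, 18.9 and 5.68 (log2 fold change 2.62, SE 0.44, adjusted p = 0.0133; 0.0501 without number 3), and stood as high in B220 LOW, at 50, 54 and 48.8. Ly6c2, a surface protein of monocytes and plasmacytoid cells, was lower in each pair, 32.2, 212 and 55.1 CPM against 158, 519.6 and 256 (log2 fold change -1.93, SE 0.29, adjusted p = 0.00863; 0.237 without the block). T lineage genes had 0 of 13 called, with Cd3e, a chain of the T cell receptor complex, at 0.0916, 11.8 and 0 CPM against 2.87, 15.8 and 2.16. Cd74, the invariant chain of class II MHC, was at 117, 1783 and 123 CPM against 79, 53.2 and 65.5 (log2 fold change 1.95, SE 1.0, adjusted p = 0.259), and 0 of 14 class II and dendritic genes were called in either direction.

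**Figure D2:**
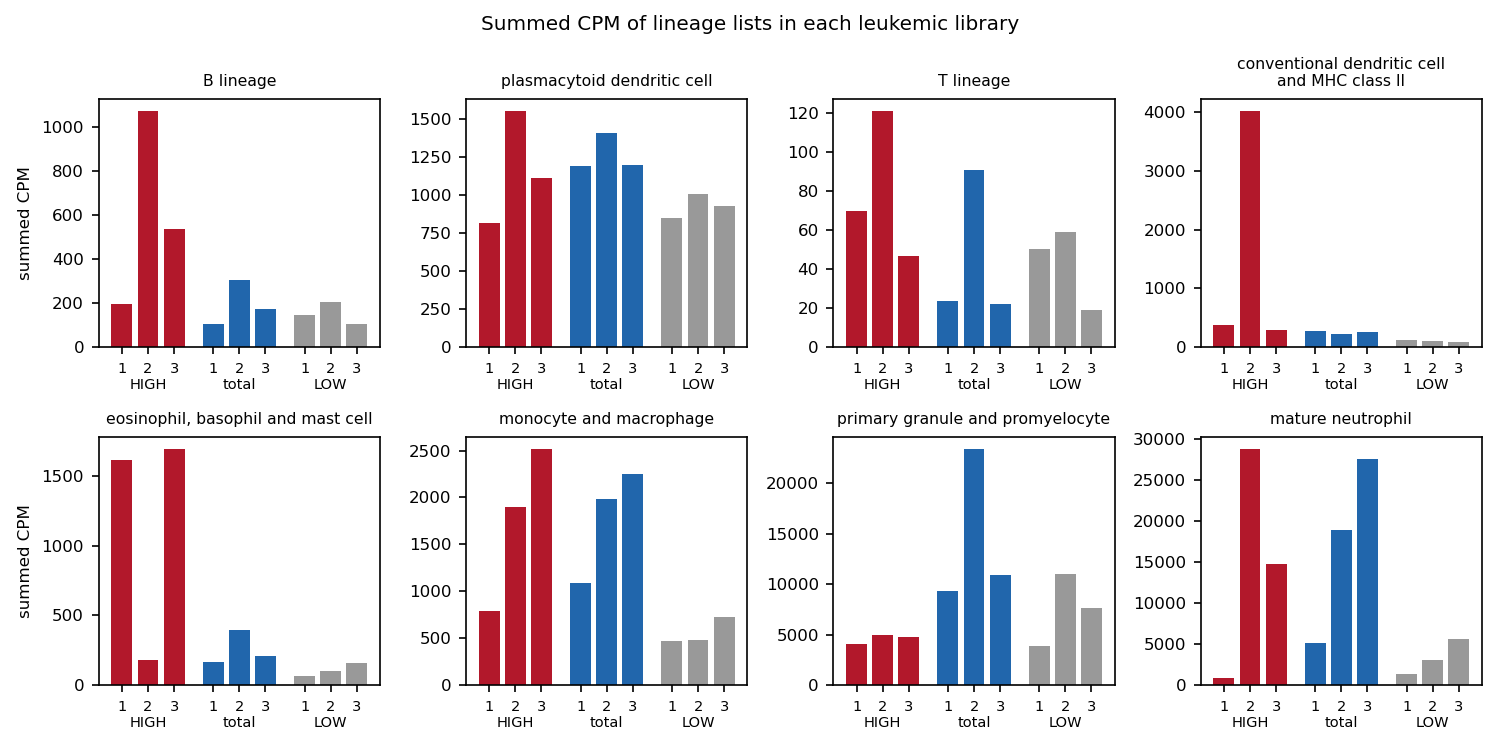
Summed CPM of the listed genes of 8 lineages (y axis, from 0) in each of the 9 leukemic libraries (x axis, replicate number under its group). B220 HIGH 2 is the only library with a high class II MHC sum, B220 HIGH 1 and 3 carry the high mast cell and eosinophil sums, and the 3 B220 HIGH libraries have primary granule sums from 4055 to 4940 CPM against 9288 to 23442 in total.

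Some genes of mast cells and eosinophils were higher in B220 HIGH: of 10 tested 4 rose and 1 fell, with a median of 1.44. Of all genes tested, 6.09% rose and 4.46% fell. Within the pairs the list median was 2.415, -1.381 and 2.025 for numbers 1, 2 and 3, so it was below 0 for number 2. The summed level of the list was 180 CPM in B220 HIGH 2 against 393 in total 2. Cpa3, the carboxypeptidase stored in mast cell granules, stood at 819, 52.5 and 876 CPM in B220 HIGH 1, 2 and 3 and at 20.8, 1.33 and 7.31 in total. The lowest B220 HIGH library was above the highest total library, and each pair rose (log2 fold change 5.85, SE 0.43, adjusted p = 0.000764). Gata2, the transcription factor of stem, mast and basophil cells, followed the same order of libraries, 334, 29.3 and 389 CPM against 30.8, 3.44 and 14.5, with overlap between the groups and a rise in each pair (log2 fold change 3.76, SE 0.39, adjusted p = 0.00195). Both calls needed the block, with adjusted p of 0.0671 and 0.0884 without it, where 0 genes of the list rose. Without number 2, the pair with the low Cpa3 library, 6 rose.

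Of the eosinophil granule protein genes, 2 rose and others did not. Epx, the eosinophil peroxidase, was at 28.6, 3.14 and 32.3 CPM against 2.64, 0.222 and 3.88 (log2 fold change 3.38, SE 0.55, adjusted p = 0.0117), and Prg2, the major basic protein, at 83.4, 5.68 and 53.6 against 10.3, 0.500 and 30.5 (log2 fold change 2.36, SE 0.56, adjusted p = 0.0328). The groups overlapped for both, and neither passed without the block (0.112 and 0.452); both were named after their values were seen, as was Siglecf, an eosinophil and macrophage lectin, which fell by 2.81 on the log2 scale (adjusted p = 0.00586; 0.114 without the block). Ear2, an eosinophil-associated ribonuclease with near-identical copies, was at 1.19, 0 and 0 CPM in B220 HIGH and 2.59, 5.94 and 4.54 in total; the groups did not overlap and the difference did not pass (log2 fold change -5.54, SE 2.06, adjusted p = 0.113). Prg3, a homolog of the major basic protein, did not pass either (log2 fold change 1.62, SE 1.70, adjusted p = 0.568); these 2 genes too were named after their values were seen. B220 LOW held little of these transcripts, with Cpa3 at 2.88, 0 and 11.4 CPM, Epx at 0.786, 0 and 0.782 and Prg2 at 2.55, 0 and 0.421. Each of these 3 was higher in B220 HIGH than in B220 LOW within their shared table: Cpa3 (log2 fold change 7.19, adjusted p = 0.0158), Epx (log2 fold change 5.63, adjusted p = 0.00759) and Prg2 (log2 fold change 6.08, adjusted p = 0.00917). Gata2 was not (log2 fold change 2.21, adjusted p = 0.171). The span of Cpa3, introns included, overlaps those of 3 annotated genes. The kit kept no strand, so reads from a shared stretch cannot be told apart.

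The promoter of Cpa3, the mast cell gene with the largest rise, is shown because its last 50 bases before the start hold AGATAA, the sequence recognised by GATA factors, in capitals (RefSeq, GRCm38.p6, minus strand, chr3:20242182-20242431).
Cpa3: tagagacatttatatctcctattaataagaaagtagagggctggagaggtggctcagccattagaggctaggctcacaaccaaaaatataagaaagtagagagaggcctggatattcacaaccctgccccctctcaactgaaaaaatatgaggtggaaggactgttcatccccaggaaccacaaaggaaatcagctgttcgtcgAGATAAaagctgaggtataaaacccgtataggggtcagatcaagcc
AGATAA was searched on both strands of the 250 bases before each start. It occurs in 9.99% of 32851 RefSeq promoters, and 11.4% of 27025 genes have it in any of their promoters. So do 4 of the 13 listed mast cell, basophil and eosinophil genes that have a promoter in the table. Of the 4 genes of the list that rose, 3 have a promoter in the table, and 1 of these holds it in this window. A match of these letters is a description of the sequence and does not show binding.

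Platelet chemokines rose as well. Pf4, platelet factor 4, stood at 13.9, 9.32 and 10.4 CPM against 0, 0.222 and 0.0881 (log2 fold change 6.88, SE 1.13, adjusted p = 0.0122), and Ppbp, the precursor of another chemokine of platelets, at 38.9, 3.09 and 8.19 against 0.0463, 0.0556 and 0.308 (log2 fold change 6.42, SE 1.07, adjusted p = 0.0127), both without overlap. They were the 2 called of 6 megakaryocyte and platelet genes tested. Without number 3 the call of Pf4 was lost (0.0658).

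Inflammatory chemokines and cytokines were higher in B220 HIGH. Of 25 NF-kappaB and cytokine genes tested, 8 rose and 0 fell, with a median of 1.54; 4 rose without the block, and 9, 9 and 5 without numbers 1, 2 and 3 in turn. Ccl2, the main attractant of monocytes, stood at 188, 495 and 2306 CPM in B220 HIGH and 11.2, 34.5 and 36.2 in total. Every B220 HIGH library lay above every total library, and B220 HIGH 3 was the highest (log2 fold change 4.61, SE 0.48, adjusted p = 0.00272; 0.0517 without the block). Cxcl3, an attractant of neutrophils, rose from 0.0927, 0 and 0.617 CPM to 24.2, 60.6 and 96.4 (log2 fold change 8.20, SE 0.74, adjusted p = 0.00124). Ccl7, another monocyte attractant, which is not on this list, rose from 0.741, 0.333 and 0.749 CPM to 71, 201 and 937 (log2 fold change 8.74, SE 0.84, adjusted p = 0.00452), and its call was lost without number 2 (0.0942). The other called members of the list, named after their values were seen, were Tnf, Il1rn, Il6, Cxcl2, Ccl4 and Ccl6. Il1rn, the antagonist of the interleukin-1 receptor, stood at 79.7, 429.8 and 943 CPM against 14.2, 61.8 and 37.1 (log2 fold change 3.30, SE 0.46, adjusted p = 0.00856; 0.0773 without the block), and Il6, a cytokine of the acute phase, at 13.2, 0.648 and 24.2 against 0, 0 and 0.0440 (adjusted p = 0.00393).

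Ccl2, Cxcl3, Ccl7 and Il1rn separated the sorted groups from each other too. In B220 LOW, Ccl2 was at 17, 29.4 and 87.3 CPM, Cxcl3 at 0.262, 0 and 1.08 and Il1rn at 7.14, 18.2 and 41.3, and none of these 3 passed against total. Ccl7 was at 9.89, 10.2 and 33.3 CPM in B220 LOW, higher than in total (log2 fold change 4.70, adjusted p = 0.00307), and B220 HIGH was higher still (log2 fold change 4.18, adjusted p = 0.012). Of the 25 genes, 6 were higher in B220 HIGH than in B220 LOW and 0 lower, among them Ccl2 (log2 fold change 4.20, adjusted p = 0.00192), Cxcl3 (log2 fold change 7.48, adjusted p = 0.00316) and Il1rn (log2 fold change 4.27, adjusted p = 0.00222). Against total, B220 LOW had 1 of the 25 higher and 5 lower.

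Macrophage genes moved in both directions. Of 20 monocyte and macrophage genes tested, 3 rose and 4 fell, and the median was 0.13; without number 3, 2 rose and 0 fell. Adgre1, the F4/80 antigen of macrophages and eosinophils, rose from 84, 68.2 and 124 CPM to 219.6, 180.2 and 188 without overlap (log2 fold change 1.13, SE 0.27, adjusted p = 0.0326; 0.0634 without the block, and 0.135 and 0.0649 without number 1 and without number 2). Hmox1, the heme-degrading oxygenase that tissue macrophages express, rose from 30.7, 27.2 and 51.2 CPM to 157, 253 and 659.8 (log2 fold change 3.09, SE 0.33, adjusted p = 0.00233). Csf1r, the receptor that defines the monocyte lineage, did not pass, at 22.6, 157 and 81.9 CPM against 144, 129.7 and 283 (log2 fold change -1.42, SE 0.58, adjusted p = 0.156), although it did with DESeq2 (adjusted p = 0.0131) and without number 2 (0.000364). Klf4, a factor of monocyte differentiation, fell from 36.1, 16.1 and 119 CPM to 3.39, 4.29 and 2.68 (log2 fold change -3.58, SE 0.69, adjusted p = 0.0196; 0.0916 without number 3), and the integrin subunit Itgam, CD11b, was at 346, 1388 and 834 against 744, 916 and 1055 (log2 fold change -0.28, SE 0.35, adjusted p = 0.631). B220 LOW had 78, 21.9 and 17.6 CPM of Adgre1, and B220 HIGH exceeded it (log2 fold change 2.58, adjusted p = 0.0223).

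The macrophage elastase Mmp12 and some genes of the lysosome rose. Mmp12 was almost absent from total marrow, at 2.83, 0.0556 and 0.837 CPM, and stood at 455, 619 and 2840 in B220 HIGH (log2 fold change 10.15, SE 1.33, adjusted p = 0.0151). The call was lost without number 2 (0.225) and without number 3 (0.219). B220 LOW, at 22.7, 34.1 and 69 CPM, was itself above total (log2 fold change 5.01, adjusted p = 0.0333), and the sorted groups did not differ beyond the test (log2 fold change 4.75, adjusted p = 0.16). Of 25 lysosome genes tested 6 rose and 0 fell, with a median of 0.44. Ctsl, the cysteine protease cathepsin L, rose from 34.7, 43.4 and 71.1 CPM to 216, 476 and 1009.7 (log2 fold change 3.31, SE 0.32, adjusted p = 0.00159), and Atp6v0d2, a subunit of the proton pump of macrophages and osteoclasts, from 0.880, 2.0 and 2.47 to 14.1, 101 and 122 (log2 fold change 5.16, SE 0.50, adjusted p = 0.00159). In both genes the groups did not overlap. B220 LOW had 1.05, 0.0744 and 1.26 CPM of Atp6v0d2 and 132, 98.1 and 97.5 of Ctsl, and B220 HIGH was higher than B220 LOW in both (log2 fold change 6.34, adjusted p = 0.0124, and log2 fold change 2.18, adjusted p = 0.0451). Ctsl was also higher in B220 LOW than in total (log2 fold change 1.31, adjusted p = 0.0403). Further called members, named after their values were seen, were Ctsd, Ctsz and Gpnmb.

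Primary granule genes, which promyelocytes and myeloid blasts transcribe, were lower in B220 HIGH. Of 13 tested 6 fell and 0 rose, with a median of -1.64. Mpo, myeloperoxidase, stood at 3680.3, 9811 and 4620.4 CPM in total marrow and at 15.4, 383 and 59 in B220 HIGH. Every B220 HIGH library was below every total library (log2 fold change -6.27, SE 0.73, adjusted p = 0.00816), but the call was lost without the block (0.0638) and without number 3 (0.227). Elane, neutrophil elastase, fell from 993, 4787 and 1698 CPM to 27.9, 351 and 82.7 (log2 fold change -4.42, SE 0.36, adjusted p = 0.000816; 0.0814 without the block), and Prtn3, proteinase 3, from 362, 929 and 743 to 6.78, 119 and 21.9 (log2 fold change -4.60, SE 0.60, adjusted p = 0.0105; 0.0882 without the block and 0.166 without number 3). In both groups library 2 was the highest for these 3 enzymes. The other 3 that fell were Ctsg, Ms4a3 and Prss57. Without the block 2 of the list fell, and without number 3 it was 3.

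B220 LOW kept more of the granule proteases. It had 444, 2364 and 1389 CPM of Elane, 146, 498 and 359 of Prtn3 and 105, 1756 and 400.1 of Mpo. B220 HIGH was lower than B220 LOW in 4 of the 13 genes, out of 6 genes lower over the whole table, including Elane (log2 fold change -3.53, adjusted p = 0.00139), Prtn3 (log2 fold change -3.29, adjusted p = 0.0326) and, named after its values were seen, Ctsg (log2 fold change -1.91, adjusted p = 0.0124). Mpo did not pass in that contrast (log2 fold change -2.47, adjusted p = 0.137) and was lower in B220 LOW than in total (log2 fold change -3.87, adjusted p = 0.00664).

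Late neutrophil genes varied widely between libraries of a group. S100a8, a calcium-binding protein of neutrophils and monocytes, was at 21.2, 5282 and 2290 CPM in B220 HIGH and 135, 1909.9 and 937 in total (log2 fold change 0.25, SE 0.97, adjusted p = 0.892). Of 22 mature neutrophil genes tested 3 rose and 4 fell, with a median of -1.91 and within-pair medians of -4.04, -0.06 and -2.46. The 3 that rose were the protease inhibitors Stfa1 and Stfa3 and the collagenase Mmp8, and the 4 that fell were Retnlg, Csf3r, Cd177 and Mmp9. Without number 2, 12 of the list fell and 2 rose. Stfa3 was higher in each pair, 114, 3261 and 3039.6 CPM against 16.5, 804 and 261 (log2 fold change 2.78, SE 0.34, adjusted p = 0.00373), although stefin A genes are near-identical copies whose reads the authors' counting may split. Retnlg, a resistin-like secreted protein, was at 0, 4.63 and 11.8 against 6.49, 73.5 and 393 (log2 fold change -4.73, SE 0.49, adjusted p = 0.00195). Neither passed without the block (0.342 and 0.174).

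Receptors for growth factors moved apart from each other. Csf2rb2, the mouse beta chain for interleukin-3, stood at 246, 220.1 and 200.3 CPM in B220 HIGH, 46.9, 50.1 and 68 in total and 45.9, 23.7 and 18 in B220 LOW. The B220 HIGH libraries lay close together and above all 6 others, both against total (log2 fold change 2.03, SE 0.27, adjusted p = 0.00519) and against B220 LOW (log2 fold change 3.03, adjusted p = 0.00192). Csf2rb, the beta chain shared by the receptors of interleukin-3, interleukin-5 and GM-CSF, also rose, 977, 907 and 951 against 258, 284 and 388 (log2 fold change 1.63, SE 0.24, adjusted p = 0.00817); the 2 genes are close paralogs, so the split of reads between them is uncertain. Csf2rb and Csf3r were named after their values were seen. Il2rg, the common gamma chain of lymphoid cytokine receptors, rose from 60.5, 49.9 and 46.5 CPM to 208, 279 and 201 (log2 fold change 2.12, SE 0.27, adjusted p = 0.00494). Kit, the receptor of stem cell factor, fell from 151, 130.0 and 88.3 CPM to 41.8, 40.3 and 7.28 (log2 fold change -2.36, SE 0.40, adjusted p = 0.014; 0.0693 without the block), and so did Csf3r, the G-CSF receptor, from 87.2, 70 and 139 to 4.03, 22.2 and 6.47 (log2 fold change -3.53, SE 0.63, adjusted p = 0.0172). B220 LOW was also above total for Il2rg (log2 fold change 1.46, adjusted p = 0.0058). It was below total for Kit (log2 fold change -1.95, adjusted p = 0.0083) and Csf3r (log2 fold change -2.11, adjusted p = 0.0135). The sorted groups did not differ beyond the test in Il2rg, Kit or Csf3r (adjusted p = 0.304, 0.722 and 0.284), while Csf2rb was higher in B220 HIGH (log2 fold change 1.31, adjusted p = 0.0133). Of 25 cytokine receptor genes tested 4 rose and 5 fell, with a median of -0.29. Without the block 1 fell, and without numbers 2 and 3 it was 8 and 2.

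Socs2, a feedback inhibitor that cytokine receptors induce through STAT5, was nearly absent from total marrow at 0.232, 0.278 and 0.0881 CPM and stood at 25.5, 53.9 and 35 in B220 HIGH (log2 fold change 7.54, SE 0.62, adjusted p = 0.000816). It was also present in B220 LOW, at 22.7, 12.3 and 33.2, and the sorted groups did not differ beyond the test (log2 fold change 0.76, adjusted p = 0.635).

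**Figure D3:**
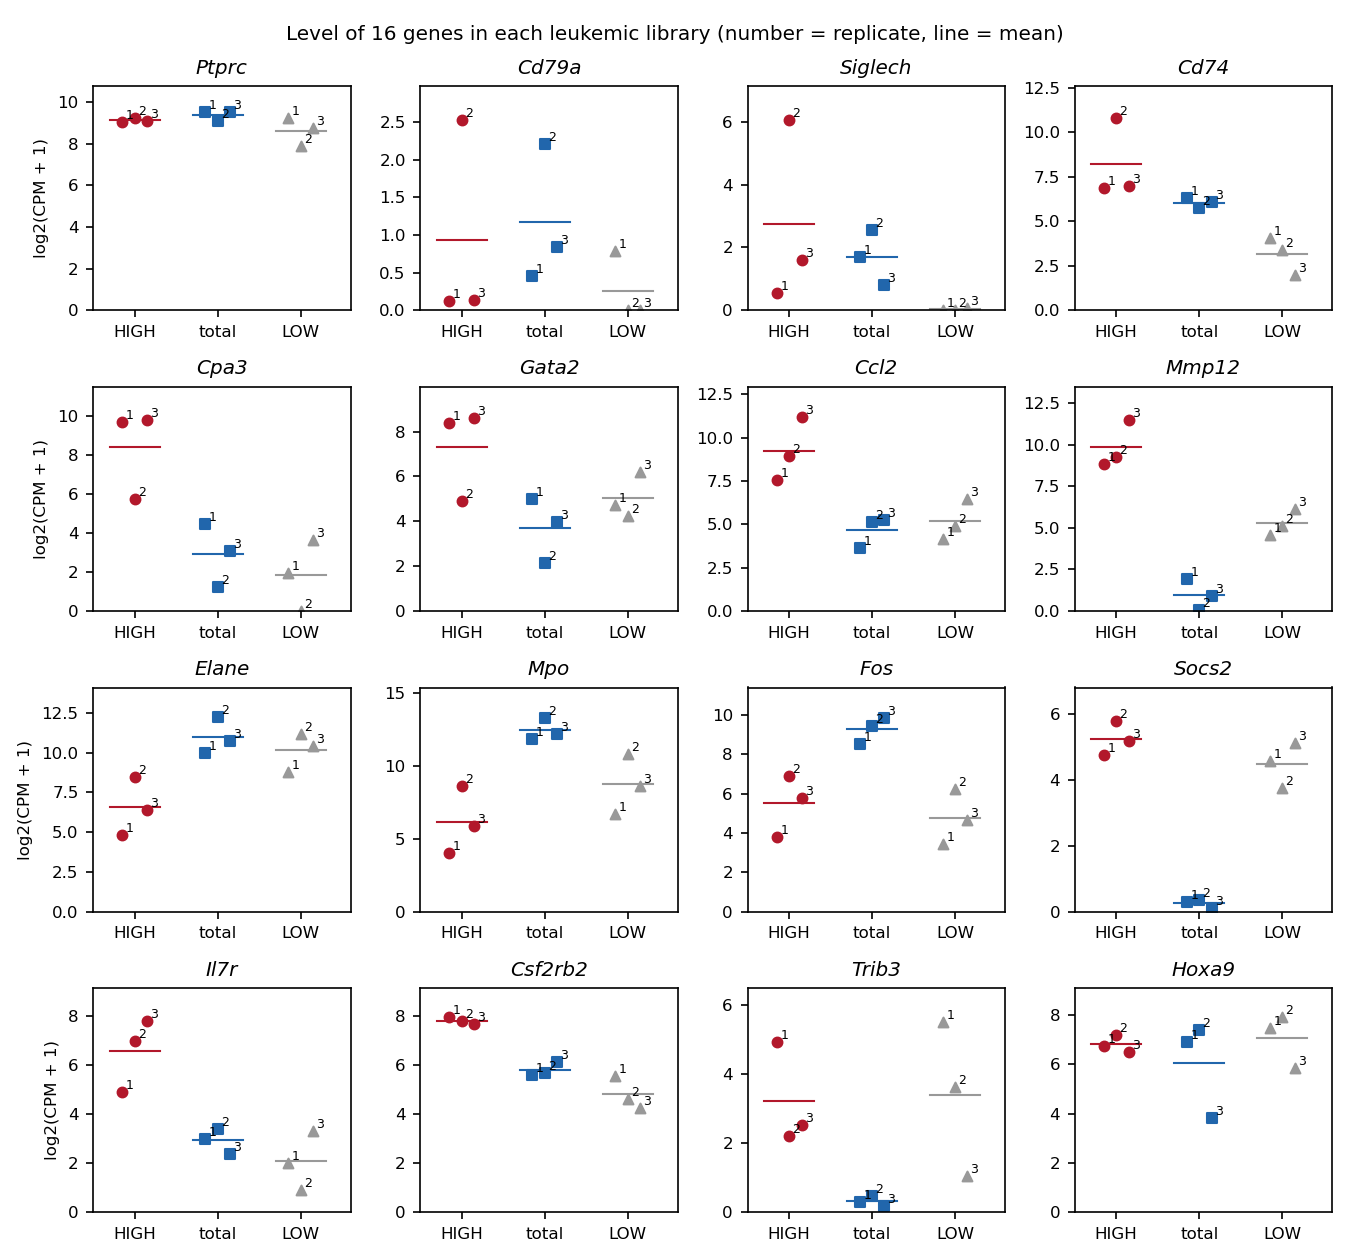
Level of 16 genes as log2(CPM + 1) (y axes, from 0) in the 3 libraries of B220 HIGH (red circles), iMLL-ENL total (blue squares) and B220 LOW (grey triangles), with the replicate number beside each point and a line at the group mean. Cd79a, Siglech and Cd74 are high in B220 HIGH 2 alone of its group, Cpa3 and Gata2 are lowest there, and Socs2 and Fos have similar levels in both sorted groups.

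Genes of adhesion and chemokine receptors were called in both directions. Cxcr4, the receptor that holds blood cells in the marrow, fell from 245, 238 and 355 CPM to 81.7, 57.8 and 28.8 (log2 fold change -2.40, SE 0.38, adjusted p = 0.0113). Fn1, fibronectin of the extracellular matrix, which is on neither of the lists counted here, fell from 1017, 442 and 3188 to 26.9, 20.8 and 52.8 (log2 fold change -5.19, SE 0.37, adjusted p = 0.00075). Both were low in B220 LOW as well, with 65.5, 68.7 and 23.9 CPM of Cxcr4 and 7.99, 7.66 and 10.2 of Fn1. Of 25 integrin, selectin and adhesion genes tested 2 rose and 3 fell, and of 13 chemokine receptors 1 rose and 2 fell, with medians of -0.28 and -1.52. Without number 2 the falls were 5 and 4, and without number 3 there was 1 on each list. Of all genes tested in the main fit, 6.09% rose and 4.46% fell.

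The adhesion genes that rose were Cd9 and Cdh1. Cd9, a tetraspanin of platelets, mast cells and macrophages, was at 42.8, 229 and 338 CPM in B220 HIGH and 4.63, 45.4 and 52.8 in total; the groups overlapped and each pair rose (log2 fold change 2.73, SE 0.28, adjusted p = 0.00195; 0.174 without the block). Cdh1, E-cadherin, stood at 43.1, 169 and 34.1 CPM against 2.41, 4.44 and 5.77 (log2 fold change 3.99, SE 0.55, adjusted p = 0.00611), and was named after its values were seen.

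Transcripts of stromal and endothelial cells were low and few were tested. Vcam1, the adhesion molecule of stroma and marrow macrophages, was at 1.74, 141 and 2.43 CPM against 48.8, 529.6 and 108 (log2 fold change -4.02, SE 0.76, adjusted p = 0.0272; 0.479 without the block, and 0.282 and 0.227 without number 1 and without number 3). It was the 1 called of 5 stromal genes tested. Sele, E-selectin of activated endothelium, which is not on that list, fell from 34.1, 32.6 and 28.6 CPM to 0.275, 0.648 and 0.506 (log2 fold change -6.03, SE 0.58, adjusted p = 0.00159). In bulk RNA, fewer cells of a type and less RNA per cell cannot be told apart.

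Immediate early genes, which cells transcribe within minutes of stimulation or handling, were lower in B220 HIGH. Of 26 tested 8 fell and 1 rose, with a median of -0.86; 3 fell without the block, and 6, 12 and 0 without numbers 1, 2 and 3 in turn. Fos stood at 371, 695 and 926 CPM in total and 13, 119 and 54.8 in B220 HIGH (log2 fold change -3.82, SE 0.47, adjusted p = 0.00507; 0.0616 without the block and 0.119 without number 3). Fosb fell from 210.0, 79.7 and 775 to 4.12, 14.5 and 12.5 (log2 fold change -4.76, SE 0.80, adjusted p = 0.0209; 0.247 and 0.216 without number 1 and without number 3), and Jun, the partner of both in the AP-1 factor, from 226, 261 and 398 to 14.6, 80.4 and 53.4 (log2 fold change -2.84, SE 0.44, adjusted p = 0.0117; 0.0555 without the block and 0.143 without number 3). The groups did not overlap in these 3 genes. The other members that fell, named after their values were seen, were Dusp1, Btg2, Klf2, Zfp36 and Rhob, and Ier3 rose. B220 LOW, from the same table as B220 HIGH, was low as well, with 9.76, 74.3 and 24.1 CPM of Fos, 2.16, 16.8 and 3.37 of Fosb and 30.6, 27.2 and 16.3 of Jun. Against total it had 14 of the 26 genes lower and 0 higher, with a median of -2.23, and between the sorted groups 3 were higher in B220 HIGH. Whether the handling of sorted and unsorted cells accounts for these differences was not tested.

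Genes of amino acid supply under ATF4, the factor of the integrated stress response, rose. Of 19 tested 9 rose and 0 fell, all 19 had a positive fold change, and the median was 1.49; 3 rose without the block, and 2, 12 and 5 without numbers 1, 2 and 3 in turn. Slc7a11, the cystine importer, stood at 129, 207 and 482 CPM in B220 HIGH and 3.61, 1.67 and 26.3 in total, with no overlap (log2 fold change 5.34, SE 0.54, adjusted p = 0.00268; 0.0693 without the block). Trib3, a pseudokinase that feeds back on ATF4, rose from 0.232, 0.389 and 0.132 CPM to 29.9, 3.64 and 4.75 (log2 fold change 5.09, SE 0.99, adjusted p = 0.0194; 0.142 and 0.0844 without number 1 and without number 3). Stc2, a secreted glycoprotein that the stress response also induces and that is not on the list, rose from 0.0463, 0.167 and 0 CPM to 86.7, 6.58 and 1.42 (log2 fold change 7.90, SE 1.11, adjusted p = 0.00665; 0.0513 without the block, and 0.0699 and 0.0558 without number 1 and without number 3). B220 HIGH 1 was the highest library for Trib3 and Stc2, while B220 HIGH 3 was the highest for Slc7a11.

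The promoter of Slc7a11 is shown because it holds TGATGNAA, the composite element of ATF4 and C/EBP factors, with 2 matches in capitals, 1 on each strand (RefSeq, GRCm38.p6, minus strand, chr3:50443615-50443863).
Slc7a11: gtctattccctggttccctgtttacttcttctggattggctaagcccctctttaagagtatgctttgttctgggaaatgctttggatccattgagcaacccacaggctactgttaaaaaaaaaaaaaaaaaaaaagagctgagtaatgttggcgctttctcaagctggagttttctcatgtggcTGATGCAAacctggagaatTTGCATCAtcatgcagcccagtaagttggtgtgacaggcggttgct
The element occurs in 3.45% of the 32851 promoters over the same 250 bases, and 3.91% of 27025 genes have it in any of their promoters. So do 5 of the 19 listed genes present in the table. Of the 8 called genes with a promoter there, only Slc7a11 holds it in this window.

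The other sorted group was above total in these genes too. Slc7a11 was at 84.5, 107 and 55.3 CPM in B220 LOW, Trib3 at 45.2, 11.3 and 1.08 and Stc2 at 137, 23 and 18.2. Against total, B220 LOW had 16 of 20 genes of the list higher and 0 lower, with a median of 2.38. Between the sorted groups 0 of the 20 passed, where 0.747% of all genes did, and the median of B220 HIGH minus B220 LOW was -0.71.

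Ribosomal protein genes showed a like pattern at smaller size. Of 41 tested 13 rose and 0 fell, 40 had a positive fold change, and the median was 1.16. Without the block 3 rose, and without numbers 1, 2 and 3 in turn 3, 20 and 0 rose. Rplp1, an acidic stalk protein of the large subunit, rose from 47.1, 75.3 and 41.4 CPM to 252, 167 and 219.9 (log2 fold change 2.0, SE 0.32, adjusted p = 0.0114; 0.0514 without number 3), and Rps2 of the small subunit from 19.7, 34.6 and 27.7 to 86.5, 76.9 and 91.6 (log2 fold change 1.67, SE 0.32, adjusted p = 0.0186; 0.0598 and 0.0785 without number 1 and without number 3). Their levels in B220 LOW were 285, 248 and 275 and 94, 120.3 and 122. In B220 LOW 30 of the 41 were higher than in total, with a median of 1.51. Between the sorted groups 0 passed, where 0.747% of all genes did, and the median of B220 HIGH minus B220 LOW was -0.30. Many processed pseudogenes copy these genes, so their counts depend on how the authors treated shared reads.

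Targets of p53, the DNA damage factor, rose in 6 of 19 genes tested and fell in 1, with a median of 1.14; 4 rose without the block. Bax, an effector of cell death, rose from 20.2, 43.1 and 31.4 CPM to 159, 153 and 217 (log2 fold change 2.53, SE 0.31, adjusted p = 0.00393), and Zmat3, an RNA-binding protein, from 38.4, 31.7 and 30.6 to 142, 144 and 154 (log2 fold change 2.13, SE 0.28, adjusted p = 0.00507). The groups did not overlap in either. The others that rose were Cdkn1a, Mdm2, Ccng1 and Tnfrsf10b, and Btg2, which is also on the immediate early list, fell. Bax was at 131, 135 and 170.3 CPM and Zmat3 at 119.5, 77.4 and 137 in B220 LOW.

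Glycolysis, chaperone and sterol genes rose in smaller numbers. In glycolysis 5 of 22 tested rose and 0 fell, with a median of 0.76; Ldha, lactate dehydrogenase A, went from 350.1, 403 and 205 CPM to 1569, 875 and 1076 (log2 fold change 1.89, SE 0.30, adjusted p = 0.0112) and the glucose importer Slc2a1 from 43.3, 27.9 and 47.2 to 195, 98.7 and 112 (log2 fold change 1.75, SE 0.29, adjusted p = 0.012). Among chaperones 3 of 13 rose and 0 fell. Hspe1, the mitochondrial co-chaperonin, went from 17.8, 40.5 and 12.9 CPM to 113, 115 and 169 (log2 fold change 2.62, SE 0.43, adjusted p = 0.0125), and Hsph1, a large cytosolic chaperone, from 101, 60.5 and 68.4 to 203, 229 and 306 (log2 fold change 1.70, SE 0.31, adjusted p = 0.016; 0.0785 without number 3). Of 18 cholesterol synthesis genes 3 rose and 0 fell, with Hmgcs1, an early synthase of the pathway, at 142, 157 and 120.2 CPM against 49.9, 48.4 and 46.5 (log2 fold change 1.52, SE 0.26, adjusted p = 0.0142). Lss, which closes the sterol rings, was at 78.6, 40.7 and 64.7 against 28.2, 16.8 and 15.9 (log2 fold change 1.59, SE 0.34, adjusted p = 0.0264; 0.0506 without the block, and 0.0628 and 0.115 without number 1 and without number 3). Without number 3 the risen genes were 2, 1 and 1 on the 3 lists. None of the genes on these lists passed between B220 HIGH and B220 LOW, a contrast in which 0.747% of all genes did.

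**Figure D4:**
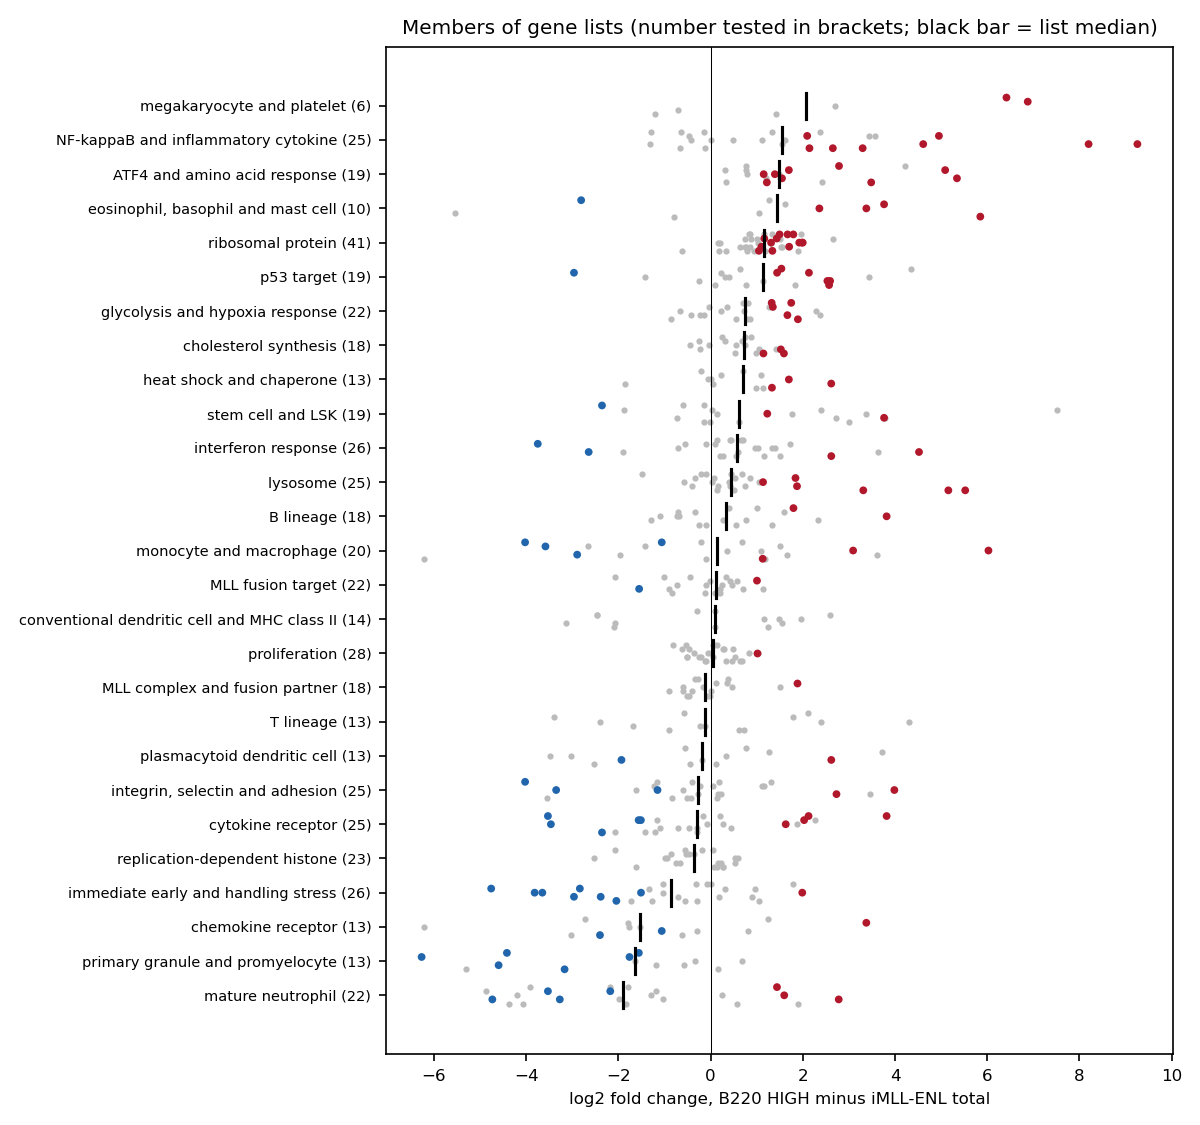
Log2 fold change of B220 HIGH minus iMLL-ENL total (x axis) for the tested members of 28 gene lists (rows, ordered by median, number tested in brackets). Red and blue points are members called higher and lower, grey points are the rest, and black bars are list medians. All 19 ATF4 members and 40 of 41 ribosomal protein genes lie right of 0, most mature neutrophil and primary granule genes lie left of it, and inflammatory cytokines and mast cell genes spread widely.

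Genes that MLL fusions are known to hold on were called in both directions. Hoxa9 was at 106, 143 and 89.4 CPM in B220 HIGH and 119, 166 and 13 in total (log2 fold change 0.71, SE 0.65, adjusted p = 0.515), where total 3 was the single low library. Meis1, its cofactor, was at 254, 134 and 129 against 282, 134 and 87.8 (log2 fold change 0.13, SE 0.26, adjusted p = 0.771). Of 22 fusion targets tested 1 rose and 1 fell, with a median of 0.12. Over all genes tested, 6.09% rose and 4.46% fell. Cdk6, the kinase that drives entry into the cycle in these leukemias, fell from 1375, 477 and 657 CPM to 360.4, 209 and 227 (log2 fold change -1.55, SE 0.26, adjusted p = 0.0129; 0.0531 without the block), and Pbx3, a further Hox cofactor, rose in each pair, 318, 57.5 and 308 against 188, 33.3 and 111 (log2 fold change 1.01, SE 0.27, adjusted p = 0.0468; 0.424 without the block, and 0.0928 and 0.187 without number 1 and without number 3).

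The genes joined in the fusion did not pass either: Kmt2a was at 547, 307 and 308 CPM against 566, 324 and 494 (log2 fold change -0.27, SE 0.24, adjusted p = 0.49) and Mllt1 at 22.2, 15 and 29.9 against 39.5, 26.2 and 34.4 (log2 fold change -0.61, SE 0.37, adjusted p = 0.306). Reads of the fusion are counted with those of its normal parent genes. Of 18 genes of the MLL complex and its partners 1 was called, Mllt3, the paralog of ENL, which rose in each pair from 14.7, 5.39 and 1.89 CPM to 59.8, 14.2 and 8.75 (log2 fold change 1.87, SE 0.45, adjusted p = 0.0336; 0.214 without the block, and 0.222 and 0.119 without number 1 and without number 3). Proliferation genes had 1 of 28 called. Mki67, the standard mark of cycling cells, was at 2721, 1932 and 1695 CPM against 3054, 3189.7 and 2754 (log2 fold change -0.53, SE 0.25, adjusted p = 0.189), and Birc5, a mitotic regulator, at 199, 167 and 191 against 69.7, 123 and 91.3 (log2 fold change 1.01, SE 0.27, adjusted p = 0.0496; 0.0743 without the block, and 0.263 and 0.163 without number 1 and without number 3).

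Interferon genes had 2 of 26 higher and 2 lower, with a median of 0.57, and none was called without number 3. Cmpk2, a nucleotide kinase that interferon induces, fell from 18.2, 21.7 and 22.7 CPM to 2.20, 2.39 and 6.83 (log2 fold change -2.65, SE 0.56, adjusted p = 0.0252; 0.0579 without the block, and 0.054 and 0.0643 without number 1 and without number 3). Of 19 stem cell genes 2 rose, Gata2 and Cd34, and Kit fell. Plasma cell, NK cell, erythroid and replication-dependent histone lists had 0 called members, of 6, 4, 5 and 23 tested. Xist, the long RNA of the inactive X, was at 7617, 3559.6 and 2612 CPM against 11468, 7999.6 and 7845 (log2 fold change -1.12, SE 0.28, adjusted p = 0.0391; 0.13 without the block, and 0.0598, 0.0798 and 0.0882 without numbers 1, 2 and 3 in turn), and its reads cannot be told from those of the overlapping Tsix.

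Some of the largest changes were in genes that stand on none of these lists. Spint1, a membrane-bound inhibitor of serine proteases, stood at 30.3, 83.5 and 41 CPM in B220 HIGH and had 2 counts in total (adjusted p = 0.000816), and the 95% counting interval of the ratio was 478.2 to 14280. It was also present in B220 LOW, at 19.4, 19.9 and 14.4 CPM (log2 fold change 8.89, adjusted p = 0.000699 against total), and the sorted groups did not differ beyond the test (log2 fold change 1.45, adjusted p = 0.262). Cyp11a1, the enzyme of the first step of steroid synthesis, was at 74.5, 2.94 and 12.9 CPM against 0.0927, 0 and 0 (adjusted p = 0.000943), and the counting interval of the ratio was 191.3 to 5726. It was higher than in B220 LOW too (log2 fold change 5.16, adjusted p = 0.00917), and B220 HIGH 1 was its highest library. Pdpn, the mucin podoplanin, rose from 0.0927, 0 and 0.352 CPM to 16.4, 46.5 and 238 (log2 fold change 9.25, SE 0.65, adjusted p = 0.00075), with 0.458, 0.223 and 14.4 in B220 LOW (log2 fold change 5.26, adjusted p = 0.00437). Basp1, a membrane protein of the cell cortex, stood at 124, 54.7 and 131 CPM against 0, 0 and 0.749 (log2 fold change 9.09, SE 0.93, adjusted p = 0.00371), and Tjp1, a scaffold of tight junctions, at 35.7, 10.3 and 23.2 against 0, 0.333 and 0.0881 (log2 fold change 7.35, SE 1.11, adjusted p = 0.00895; 0.1 without number 3).

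Among the largest falls, 4933440M02Rik, a gene model without a protein name, had 0 counts in all 3 B220 HIGH libraries and 22.8, 43.5 and 10.1 CPM in total. Set against 3 counts over the group as a floor, it was at least 409.1-fold lower (adjusted p = 0.00268). Arhgef37, a guanine nucleotide exchange factor, was at 0, 0.0997 and 0.101 CPM against 22, 3.67 and 27.5 (log2 fold change -7.39, SE 1.03, adjusted p = 0.00647; 0.0645 without number 3). Tmem150b, a membrane protein, was at 0, 2.39 and 0.0506 against 27, 25.3 and 27 (log2 fold change -6.36, SE 1.33, adjusted p = 0.0305; 0.0743 without the block and 0.173 without number 3). Apba1, an adaptor known from neurons, was at 0, 2.24 and 1.06 against 22.3, 26.6 and 71.3 (log2 fold change -5.48, SE 0.92, adjusted p = 0.015; 0.149 without number 3), and Ncmap, a myelin protein, at 0, 4.14 and 0.152 against 19.8, 26.8 and 12.6 (log2 fold change -5.31, SE 1.20, adjusted p = 0.0317; 0.142 without the block and 0.231 without number 3). B220 LOW was also below total for Arhgef37 (log2 fold change -7.50, adjusted p = 0.00365), Tmem150b (log2 fold change -5.96, adjusted p = 0.0162) and Apba1 (log2 fold change -4.72, adjusted p = 0.0232), and not beyond the test for Ncmap (log2 fold change -1.41, adjusted p = 0.331).

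**Figure D5:**
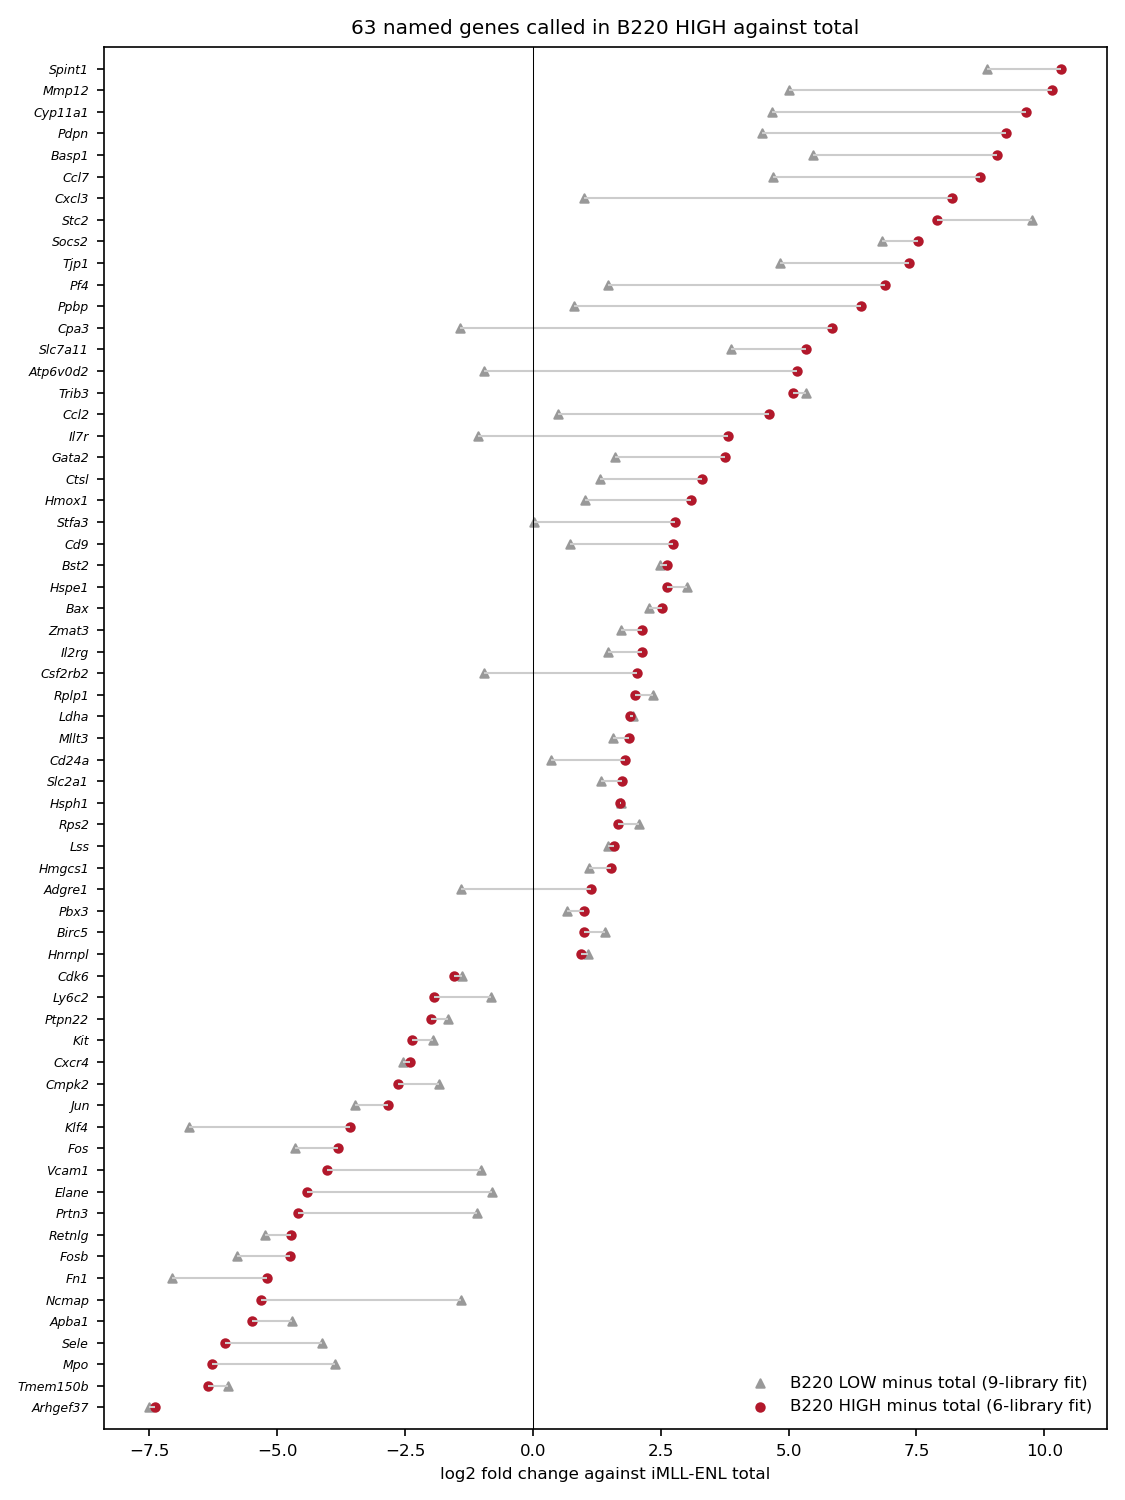
Log2 fold change against iMLL-ENL total (x axis) of 63 named genes called in B220 HIGH against total (rows, ordered by that change). Red circles are B220 HIGH minus total in the 6-library fit and grey triangles B220 LOW minus total in the 9-library fit; both use the same total libraries. Circle and triangle lie far apart for Cpa3, Cxcl3, Ccl2, Atp6v0d2, Il7r, Elane and Prtn3 and close together for Socs2, Trib3, Bax, Ldha, Hsph1, Cdk6 and Cxcr4.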

How the data were processed

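RNA of marrow cells was isolated with a PicoPure kit and made into libraries with a NuGen Ovation kit that keeps no strand, per the labels' protocols. The authors deposited raw counts for 24028 NCBI gene IDs in each table, with a gene width (other unit). Their deposited CPM tables were left out. Tools and builds named by the submitters' processing notes are edgeR, GRCm38 and mm10; aligner and counter were not given there. RefSeq (GRCm38.p6) gave symbols for 23968 IDs and none for 60.

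The count columns were joined by gene ID and normalized together. Printed CPM are over the library total. The test was edgeR 4.0.16 (R 4.3.3; TMM, filterByExpr with a minimum count of 10, robust quasi-likelihood F test, two-sided, Benjamini-Hochberg over all 13103 genes, adjusted p under 0.05), with the replicate number as a block. Values against or between B220 LOW come from the same model on 9 libraries. What a number marks is not in the labels. Over genes, the deviations from the group mean correlated between libraries 1 at 0.432, between libraries 2 at 0.207 and between libraries 3 at 0.182. Each value exceeds 0.1, and on this ground, not the labels, numbers were treated as pairs. SE is the standard error of the log2 fold change. Alternatives used DESeq2 1.42.0, limma 3.58.1, other scalings and filters, no block, and fewer libraries. The fit was also tested on simulated data. With the block, it called 4.76% of the 2-fold changes put in, 49.3% of the 4-fold and 76.5% of the 8-fold, and 5 of its 94 calls were false. A gene that did not pass may therefore still differ.

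The text names 20 genes whichever way they went. It also names the 10 highest and 10 lowest fold changes of called genes whose groups did not overlap (average log2 CPM 3 or more), and for every list the 2 called genes of smallest p (average 1 or more). Genes said to be named after their values were seen fall outside this rule, as do list members given by name only. A few genes within this rule are not reported here. The members and the 34 lists were chosen with earlier results of these data known, and some genes stand on 2 lists. In all, 25 listed genes were not in the tables, 13 of them mitochondrially encoded. Intervals and floors (3 counts; 0.0591 CPM over B220 HIGH) cover counting error only. Overlap was taken from gene spans, introns included, and reads from a shared stretch cannot be told apart without strand. Named genes whose spans overlap others include Mpo, Siglech, Adgre1, Gata2, Socs2, Hspe1, Cd9 and Cdk6.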

Additional observations from a re-analysis of the deposited data

How the results depend on the processing

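Of the 65 named genes that passed, none changed sign under any alternative, and 36 still passed without the replicate block. These genes were counted because they passed in the main fit, and the alternatives reuse its libraries, so a kept sign is no separate support. With single libraries left out and no block, 4 of the 65 still passed without B220 HIGH 3, 7 without total 1 and 8 without total 3. Calls depended on the design: 506 genes passed without the replicate block (304 higher, 202 lower; 505 of them also passed with it). DESeq2 called 2989 (1607 higher, 1382 lower), limma-voom 2220 (1284 higher, 936 lower), the fit without a filter on low counts 2118 (948 lower), the 9-library fit 1210 higher, and a test against a 2-fold change 165 (123 higher, 42 lower). Leaving out a pair gave 252 to 2051 calls (171 to 1123 higher, 81 to 928 lower), lowest without number 3. Leaving out single libraries without the block gave 12 (without B220 HIGH 3) to 736 calls (11 to 485 higher, 1 to 251 lower), with 158 without B220 HIGH 2, 21 without total 3 and 33 without total 1; the cause was not tested. RLE and upper quartile scaling kept 64 and 62 of the 65. The fit without a filter lost 7, among them Mpo (adjusted p = 0.0754), Mmp12 (0.15) and Il7r (0.141), and the 9-library fit lost 4: Adgre1 (0.0789), Retnlg (0.148), Stfa3 (0.168) and Vcam1 (0.0739).

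Genes that did not pass changed sign as follows. The log2 fold change of Cd79a was 0.11 without the replicate block and -3.94 to 1.52 with pairs or single libraries left out. Ebf1 was 1.09 without the block, 0.84 with limma-voom and -1.33 to 2.05 with fewer libraries. With fewer libraries Siglech ran from -1.0 to 3.98, Cd3e from -7.37 to 0.69, Itgam from -0.74 to 0.38, S100a8 from -0.69 to 2.26, Hoxa9 from -0.33 to 1.32 and Meis1 from -0.29 to 0.59. The sign of Siglech turned without number 2 and without B220 HIGH 2. Siglech passed with limma-voom, Cd3e and Csf1r with DESeq2, and Siglech and S100a8 without number 1. B220 HIGH 1, with 10921521 counts, has the least precise low levels.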

Other observations

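Further genes, chosen after their values were seen, were apart between B220 HIGH and total. Serpinb2, an inhibitor of plasminogen activators, stood at 70.7, 45.5 and 59.5 CPM in B220 HIGH, 0.232, 0.722 and 0.484 in total and 0.589, 0 and 0.180 in B220 LOW, higher than in total (log2 fold change 6.96, SE 0.57, adjusted p = 0.000816) and than in B220 LOW (log2 fold change 7.89, adjusted p = 0.00192). C3ar1, the receptor of complement fragment C3a, stood at 88.2, 121 and 288 CPM, 3.34, 5.67 and 5.81 and 1.05, 1.41 and 27.5 in the same order (log2 fold change 4.93, SE 0.37, adjusted p = 0.000764 against total). Spp1, the matrix protein osteopontin, was abundant in B220 HIGH at 663, 2593 and 7734 CPM against 12.8, 133 and 298 in total (log2 fold change 4.88, SE 0.35, adjusted p = 0.00075; 0.0999 without the block), and Gpnmb, a glycoprotein on the lysosome list, was at 373, 969.7 and 1735 against 37.1, 22.7 and 7.05 (log2 fold change 5.52, SE 1.04, adjusted p = 0.0326).

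Other genes had like levels in both sorted groups. Cish, a feedback inhibitor of cytokine signalling related to Socs2, stood at 57.4, 23.1 and 44 CPM in B220 HIGH, 52.3, 28.4 and 19.7 in B220 LOW and 3.61, 2.11 and 1.72 in total (log2 fold change 4.03, SE 0.47, adjusted p = 0.00313). Gria3, a subunit of a glutamate receptor, fell from 702, 489 and 556 CPM in total to 73, 102 and 70.8 in B220 HIGH (log2 fold change -2.83, SE 0.29, adjusted p = 0.00195), and was at 63, 87.1 and 89.6 in B220 LOW. Hdc, which makes histamine, did not pass against total (log2 fold change 1.26, SE 0.71, adjusted p = 0.291) but was higher in B220 HIGH, at 252, 53.2 and 306 CPM, than in B220 LOW, at 4.98, 11.8 and 5.77 (log2 fold change 4.87, adjusted p = 0.0398).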
